A study of Mus musculus with 21 samples.

Results

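The neutrophil-attracting CXC chemokines Cxcl1, Cxcl2 and Cxcl5 were followed in smooth muscle cells grown from the mouse aorta, the cells that contract the vessel. The members were taken by gene symbol from the annotation of the Affymetrix array, which names 18193 genes with a symbol of their own. All 3 members were found, on 5 probe sets: 3 for Cxcl1, 1 for Cxcl2 and 1 for Cxcl5. Cells came from male C57BL/6J mice aged 10 to 12 weeks, were kept in DMEM/F12 with 10% fetal calf serum, and were fed 24 h before the stimuli were given in PBS. At 24 h there were 3 arrays for tumour necrosis factor (TNF, 1 ng/ml) plus an antibody that activates the lymphotoxin beta receptor (anti-LTBR, 10 µg/ml), and 4 arrays each for TNF alone, anti-LTBR alone and the PBS control. At 2 h and 6 h TNF, anti-LTBR and the control had 1 array each. The labels number the arrays 0 to 3 within a treatment. The combination has the numbers 1 to 3, and every array at 2 h and 6 h has the number 0. The labels do not say whether a number stands for a culture or an animal, so a p-value covers only the spread between these samples.

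Cxcl1, Cxcl2 and Cxcl5 are secreted chemokines that carry the glutamate-leucine-arginine (ELR) motif ahead of their CXC cysteines, and in mice they draw neutrophils out of the blood through the receptor Cxcr2. Their genes lie together in the CXC chemokine cluster of mouse chromosome 5. They are known as rapidly induced targets of NF-kB, the family of transcription factors that TNF receptors switch on through the classical, RelA-containing dimers. LTBR, a receptor of the same superfamily that is needed to form lymphoid organs, acts through the classical branch and through the slower alternative branch of Nfkb2 and Relb. In the vessel wall these chemokines are made by smooth muscle, endothelial cells and macrophages alike.

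The upstream sequences of Cxcl1 and Cxcl2 are shown because NF-kB acts on such genes through kappaB elements. RefSeq promoter windows of 300 bases, from 250 before to 50 after the gene start, were at hand for 2 of the 3 members, and the last 120 bases before the start of each are printed, 5′ to 3′ on the plus strand of build GRCm38.p6, as chr5:90891125-90891244 for Cxcl1 and chr5:90903779-90903898 for Cxcl2. Capitals mark matches to the kappaB consensus, which overlap on the 2 strands.
Cxcl1: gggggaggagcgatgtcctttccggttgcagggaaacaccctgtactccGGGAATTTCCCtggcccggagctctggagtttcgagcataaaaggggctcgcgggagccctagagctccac
Cxcl2: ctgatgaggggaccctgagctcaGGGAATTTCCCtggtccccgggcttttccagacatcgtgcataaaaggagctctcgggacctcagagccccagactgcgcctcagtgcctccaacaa
In Cxcl1 the matches span positions -71 to -62 on the plus strand and -70 to -61 on the minus strand, counted back from the gene start. In Cxcl2 they span positions -97 to -88 and -96 to -87. The match is part of a run of 14 bases that both genes hold. Among all 32851 promoter windows of the table, 8.46% held a kappaB match on either strand. No match to TGANTCA (an AP-1 motif), TTGCNNAA (a C/EBP motif) or TATAAA was in either member's window, on either strand. Of all windows 7.81%, 10.8% and 13.6% held these motifs, in that order. A match is a string of letters only, and binding was not measured.

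The trimmed mean was 500.0 on each array, and the medians ran from 106.8 to 139.0. Signals are linear intensities, and levels of different probe sets are not compared with each other. All 10 smooth muscle markers were on the array, and 9 or 10 of them exceeded the array median on each array. Their levels were not all alike between numbers. At 24 h Myh11 had 110.7 to 152.1 on the arrays numbered 0 and 529.2 to 3337.8 on the others. Cald1 had 12649.1 to 13635 and 13831.3 to 16375.2, and the rest of the list overlapped. The endothelial list of 12 markers summed to 17887.9 to 22380.4 on the 9 arrays numbered 0, against 2395.1 to 4868 on the 12 arrays numbered 1 to 3. At 24 h Pecam1, an endothelial adhesion molecule, had a signal of 4438 to 5653.2 on the arrays numbered 0 and 40.3 to 375.5 on the others. For Vwf, the endothelial clotting factor, these were 795.2 to 1030.9 and 3.8 to 148.6, and no marker of the list was at 0 on any array of that time. Not all endothelial markers differed in this way. The sets overlapped for Kdr (170.1 to 275.7 and 180.7 to 362.3) and Eng (1538 to 1681.4 and 1145.1 to 2124.8). They also overlapped for Robo4 (104.1 to 109.7 and 77.4 to 125.1) and Cldn5 (9.5 to 75.7 and 42.2 to 97.1). The 10 macrophage markers summed to 1213 to 1514.1 on the arrays numbered 0, 1658.3 to 2218.5 on numbers 1 and 2, and 3532.1 to 4869 on number 3. The 7 neutrophil markers on the array summed to 290.8 to 575.5 on the arrays numbered 0 and 354.1 to 692.6 on the others. Of these markers 0 to 3 were above the array median. The arrays numbered 0 thus stand apart. Results that rest on them are given with and without them, or with the number as a block, which compares arrays within a number. The combination has no array numbered 0. In its blocked changes over all 15 arrays, number 0 counts only through the other groups, which can shift those changes.

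Cxcl1, known as KC in the mouse, is read by 3 probe sets: one specific to the gene (1419209_at), one that matches several transcripts (1457644_s_at) and one with probes that can match other transcripts (1441855_x_at). On the specific probe set the combination at 24 h had signals of 2679.0, 1155.7 and 1190.1 for numbers 1 to 3. TNF had 2541.0, 1363.7, 692.6 and 459.5 for numbers 0 to 3, and anti-LTBR 2330.1, 714.3, 258.3 and 277.9. The control had 2177.9, 189.3, 94.4 and 73.4. Within each of numbers 1 to 3 the order of the levels was the same: combination, TNF, anti-LTBR, control. Number 0, which has no combination array, kept the order of TNF, anti-LTBR and control, with log2 steps of 0.12 and 0.10. The 3 control arrays numbered 1 to 3 lay below every treated array, and the control array numbered 0 lay above all but 3 of the treated arrays. The probe set 1457644_s_at had 2286.2, 1037.6 and 967.0 with the combination, 2385.0, 1089.3, 767.7 and 585.9 with TNF, 1950.6, 654.9, 356.3 and 550.7 with anti-LTBR, and 2035.1, 277.9, 320.1 and 282.8 in the control. The probe set 1441855_x_at had 2400.9, 1942.9 and 2765.9 with the combination, 2679.8, 1980.9, 1539.1 and 1780.5 with TNF, 2480.5, 1600.6, 1159.3 and 1225.6 with anti-LTBR, and 2487.6, 889.0, 994.6 and 1160.0 in the control. Both kept the order of levels in 3 of 4 numbers, the exception being number 0, where anti-LTBR lay just under the control. The 3 probe sets thus ranked the groups alike and differed in the spread between treated and control arrays.

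**Figure D1:**
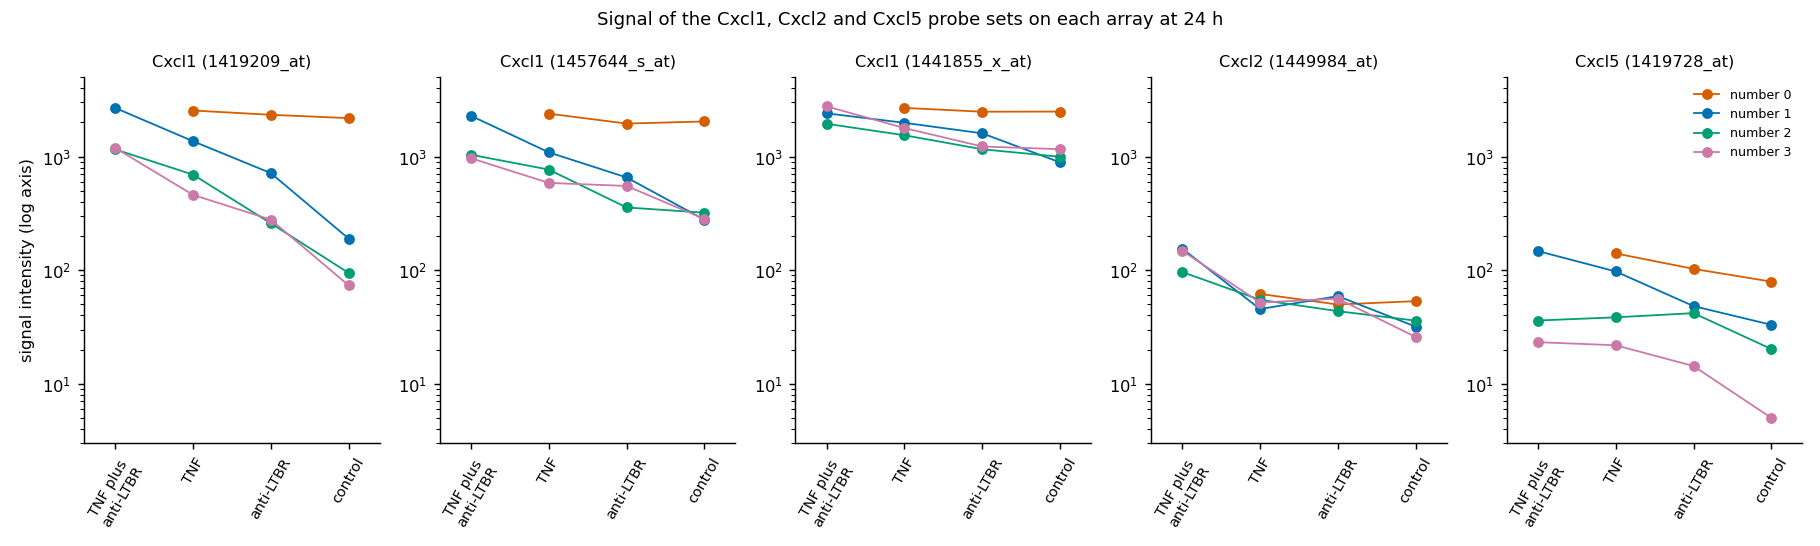
Signal intensity (log axis) of the 5 probe sets at 24 h for the combination, TNF, anti-LTBR and the control, with 1 point per array and a line joining arrays of 1 number. Number 0 is nearly flat for Cxcl1, at 2541.0 with TNF and 2177.9 in the control on 1419209_at, whereas numbers 1 to 3 fall from left to right on that probe set.

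Cxcl2, also called MIP-2, had a signal of 154.7, 96.2 and 148.1 with the combination at 24 h. TNF arrays had 61.7, 45.4, 54.8 and 51.8, anti-LTBR arrays 49.8, 59.0, 43.5 and 56.1, and control arrays 53.3, 31.8, 35.9 and 25.8. Every combination array was above every other array of that time, while the TNF and anti-LTBR arrays overlapped with each other and with the control array numbered 0. The order seen for Cxcl1 held in 1 of 4 numbers, and TNF and anti-LTBR each ranked above the other in 2. Cxcl2 exceeded the array median on 2 of the 15 arrays at 24 h, both of them combination arrays.

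Cxcl5, also called LIX, had 147.2, 36.0 and 23.2 with the combination. TNF arrays had 140.3, 97.3, 38.4 and 21.8, anti-LTBR arrays 102.5, 48.2, 41.8 and 14.3, and control arrays 79.2, 33.0, 20.2 and 5.0. The numbers set the range of this gene: number 3 had 5.0 to 23.2, number 2 20.2 to 41.8, number 1 33.0 to 147.2 and number 0 79.2 to 140.3. Groups overlapped throughout, and within a number the order of Cxcl1 held in 3 of 4. Cxcl5 exceeded the array median on 2 of the 15 arrays.

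Changes were tested with limma on log2(signal + 10.1), a scale that understates the change of low genes. A filter that kept probe sets above the array median on at least 3 of the 15 arrays left 12446 genes, each read by its brightest probe set. Of the 3 members Cxcl1 alone passed it, through 1441855_x_at. All 45037 non-control probe sets were therefore also tested without a filter, a choice made after the values were seen, and unless stated otherwise the values of single probe sets are from that fit.

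TNF plus anti-LTBR raised all 3 chemokines above the control when arrays were compared within a number. For Cxcl5 most of these signals were low. In numbers 1 to 3 they were 147.2 against 33.0, 36.0 against 20.2 and 23.2 against 5.0, and the last control value was under the added 10.1. Cxcl2 rose 3.07-fold, by 1.62 ± 0.25 on the log2 scale (SE; adjusted p = 0.00377), and was higher in 3 of 3 numbers. It was the 1 probe set of 5 called without the block, where 0.711% of all probe sets were called higher. With the number as a block all 5 were called, against 3.45% of all probe sets called higher. The blocked change was 3.36 ± 0.35 for Cxcl1 on 1419209_at (10.2-fold, adjusted p = 4.507e-05), 1.97 ± 0.26 on 1457644_s_at and 1.12 ± 0.14 on 1441855_x_at. For Cxcl2 it was 1.69 ± 0.25 (adjusted p = 0.0007361), and for Cxcl5 1.16 ± 0.28 (2.23-fold, adjusted p = 0.02201). Without the block the same Cxcl1 probe sets changed by 2.65 ± 0.99, 1.44 ± 0.70 and 0.89 ± 0.33, and Cxcl5 by 0.77 ± 0.71 (adjusted p = 0.9375). In the filtered fit Cxcl1 changed by 0.89 ± 0.33 (adjusted p = 0.261, unadjusted p = 0.0179) and was not called, where 1.82% of genes were called higher. The block brought it to 1.12 ± 0.14 (adjusted p = 7.797e-05), where 9.1% of genes were called higher. One array decided the unblocked call: without the control array numbered 0 the adjusted p of Cxcl1 was 0.03139. Over the arrays numbered 1 to 3, with the block, the changes were 3.69 ± 0.13 for Cxcl1 on 1419209_at (adjusted p = 6.087e-08), 1.77 ± 0.26 for Cxcl2 (adjusted p = 0.001674) and 1.20 ± 0.31 for Cxcl5 (adjusted p = 0.0467). That fit called 2.92% of all probe sets higher. Within numbers 1 to 3 the 1419209_at difference was 3.75, 3.48 and 3.85, each above the blocked 3.36 over all arrays.

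The marker sums over numbers 1 to 3 were set beside these changes. Endothelial markers summed to 2604 to 4707.9 with the combination and 2426.2 to 4685.3 in the control. Macrophage markers summed to 1701.4 to 4869 and 1712.1 to 4698.6, in that order, with number 3 highest in both groups. Smooth muscle markers summed to 59497.4 to 72654.5 with the combination, 72530.6 to 77881.9 with TNF, 72112.3 to 78657 with anti-LTBR and 79442 to 90322.9 in the control, and no treated array overlapped with the control. Of 10 smooth muscle markers 1 was called lower in the filtered fit, where 0.635% of genes were, and 7 with the block, where 10.4% were. Tagln, an actin-binding protein of contractile smooth muscle, was the 1 called without the block and fell by 0.30 ± 0.07 on the log2 scale (adjusted p = 0.044). The part of this shift in the chemokine changes under any treatment was not tested, and in such bulk RNA fewer cells of a type and less RNA per cell cannot be told apart.

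TNF alone raised Cxcl1 when arrays were compared within a number. With the block the change was 2.06 ± 0.31 on 1419209_at (4.17-fold, adjusted p = 0.003979), 1.11 ± 0.24 on 1457644_s_at (adjusted p = 0.03268) and 0.62 ± 0.13 on 1441855_x_at (adjusted p = 0.02865). These 3 of 5 were called, against 1.01% of all probe sets called higher. Cxcl5 changed by 0.96 ± 0.25 (adjusted p = 0.09189) and Cxcl2 by 0.47 ± 0.22 (adjusted p = 0.4531), and neither was called, although both were higher than the control in 4 of 4 numbers. Without the block 0 of 5 were called by limma, against 0.113% of all probe sets called higher, and 1 of them, 1419209_at, had an unadjusted p under 0.05 (0.0409). After filtering, Cxcl1 was not called without the block (0.62 ± 0.31, adjusted p = 0.9998, unadjusted p = 0.0611, 0.337% of genes called higher) but was called with the number as a block (adjusted p = 0.0113, 3.05% of genes called higher). The Cxcl1 difference on 1419209_at was 0.22 within number 0, and 2.78, 2.75 and 2.49 within numbers 1 to 3. Over numbers 1 to 3 with the block it was 2.68 ± 0.13 (adjusted p = 1.266e-06, 0.848% of all probe sets called higher).

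Anti-LTBR alone gave positive differences from the control that were not called over all 15 arrays. With the block Cxcl1 changed by 1.28 ± 0.31 on 1419209_at (2.42-fold, adjusted p = 0.07622), Cxcl5 by 0.56 ± 0.25 (adjusted p = 0.4032) and Cxcl2 by 0.44 ± 0.22 (adjusted p = 0.4831). By limma 0 of 5 probe sets were called with the block, against 0.822% of all called higher, and 4 of the 5 had an unadjusted p under 0.05, all but Cxcl2. Without the block 0 were called, against 0.0666% called higher, and 0 had such a p. In the filtered fit Cxcl1 changed by 0.28 ± 0.31 (adjusted p = 0.9995, unadjusted p = 0.3696) without the block, where 0.129% of genes were called higher. With it the change was 0.28 ± 0.13 (adjusted p = 0.2538), where 2.56% of genes were called higher. Within numbers the 1419209_at difference was 0.10 for number 0, and 1.86, 1.36 and 1.79 for numbers 1 to 3. Over the arrays numbered 1 to 3 with the block it was 1.67 ± 0.13 (adjusted p = 0.0001041), the 1 member probe set called there, against 0.522% of all probe sets called higher.

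**Figure D2:**
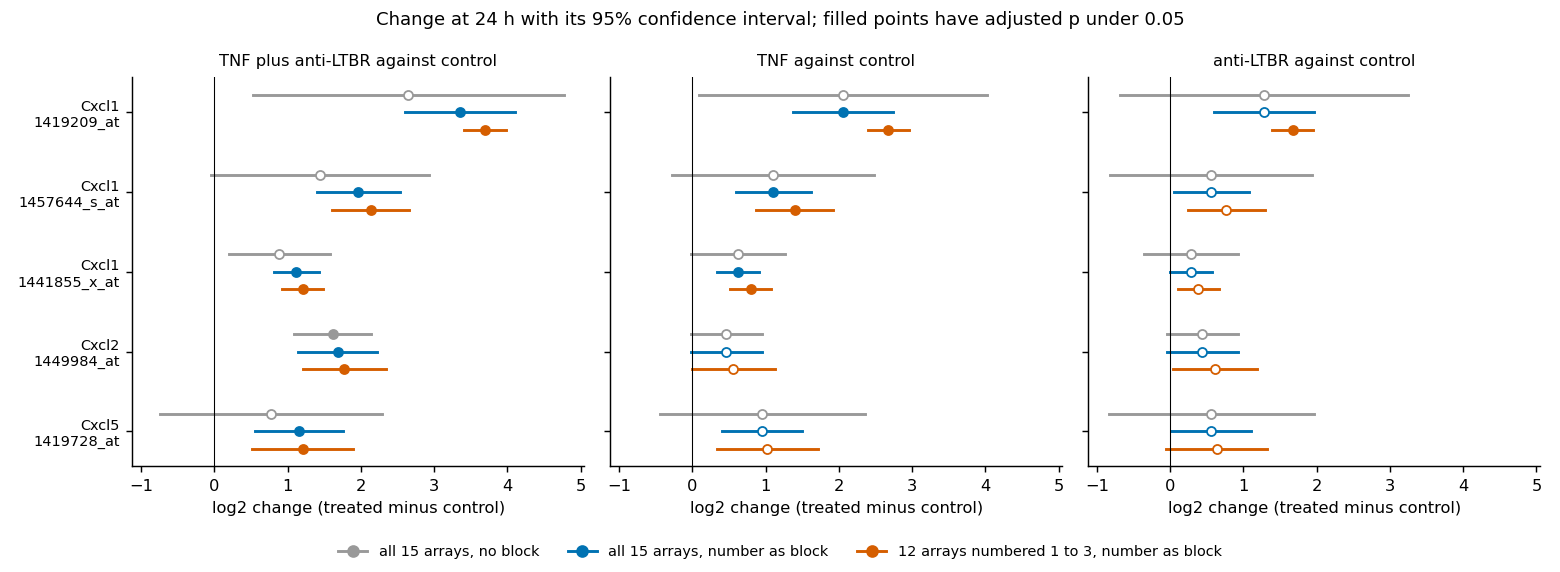
Fitted log2 change at 24 h against the control for the combination, TNF and anti-LTBR, with 95% confidence intervals, from the fit of all probe sets. Grey points are without the block, blue points with the number as a block and orange points with the block over numbers 1 to 3, and filled points have an adjusted p under 0.05. For Cxcl1 on 1419209_at the blocked changes are 3.36, 2.06 and 1.28, and their intervals are narrower than without the block.

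The combination was set against each agonist to see what the second stimulus added. Against TNF, Cxcl2 rose by 1.22 ± 0.25 with the block (2.33-fold, adjusted p = 0.02638) and was higher in 3 of 3 numbers. It was the 1 of 5 probe sets called, against 0.948% of all called higher. Cxcl1 changed by 1.30 ± 0.35 on 1419209_at (adjusted p = 0.09046) and Cxcl5 by 0.20 ± 0.28 (adjusted p = 0.8471, 95% interval -0.40 to 0.80). Without the block 0 of 5 were called by limma, against 0.00666% of all called higher, and Cxcl2 alone had an unadjusted p under 0.05 (0.000304). Cxcl1 changed in the filtered fit by 0.26 ± 0.33 (adjusted p = 0.9981, unadjusted p = 0.4397, 0.0482% of genes called higher). Over numbers 1 to 3 with the block the calls changed places: Cxcl1 on 1419209_at was called (1.02 ± 0.13, adjusted p = 0.00807) and Cxcl2 was not (1.21 ± 0.26, adjusted p = 0.05987), where 0.56% of all probe sets were called higher.

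Against anti-LTBR the combination was higher for Cxcl1 and Cxcl2. With the block 4 of 5 probe sets were called, all but Cxcl5, against 0.899% of all called higher. Cxcl1 rose by 2.08 ± 0.35 on 1419209_at (4.23-fold, adjusted p = 0.008222), Cxcl2 by 1.25 ± 0.25 (adjusted p = 0.02196), and Cxcl5 had 0.60 ± 0.28 (adjusted p = 0.4229). Without the block 0 were called by limma, against 0.131% called higher, and Cxcl2 alone had an unadjusted p under 0.05 (0.000238). The filtered fit gave 0.60 ± 0.33 for Cxcl1 (adjusted p = 0.9976, unadjusted p = 0.08984, 0.362% of genes called higher) and 0.84 ± 0.14 with the block (adjusted p = 0.003324, 2.77% called higher).

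The agonists were also compared with each other, and 0 of 5 probe sets were called, by limma without the block (0.00888% of all called in either direction) or with it (0.224%). Cxcl1 was higher with TNF than with anti-LTBR in 4 of 4 numbers on each of its probe sets, by 0.79 ± 0.31 on 1419209_at with the block (adjusted p = 0.5505). The 3 Cxcl1 probe sets had an unadjusted p under 0.05 in the blocked fit, and 0 of 5 had in the other. The difference in the filtered fit was 0.34 ± 0.31 (adjusted p = 0.9997, unadjusted p = 0.286, 0.0161% of genes called in either direction). Over numbers 1 to 3 with the block 1419209_at was called at 1.01 ± 0.13 (adjusted p = 0.01077, 0.195% of all probe sets called in either direction). For Cxcl2 the difference was 0.03 ± 0.22 with the block, with a 95% interval of -0.45 to 0.52.

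The interaction asks whether the change with both agonists differed from the sum of the single changes on the log2 scale. In limma 0 of 5 probe sets were called in either direction, with or without the block, against 0.00222% of all probe sets with it and 0% without it. The filtered fit called 0% of genes without the block, Cxcl1 included. Cxcl2 had 0.78 ± 0.33 with the block (95% interval 0.06 to 1.51, adjusted p = 0.6524). In the limma fits of all 15 arrays it was the 1 member with an unadjusted p under 0.05, with the block (0.036) and without it (0.0496). Those Cxcl2 values also draw on number 0, which has no combination array. There TNF and anti-LTBR differed from the control by 0.18 and -0.08 for Cxcl2. Within numbers 1 to 3 the differences were 0.41, 0.50 and 0.79 for TNF, and 0.72, 0.22 and 0.88 for anti-LTBR. Cxcl1 on 1419209_at had 0.02 ± 0.47 with the block (interval -0.99 to 1.03), and Cxcl5 -0.36 ± 0.38 (interval -1.17 to 0.45). Over numbers 1 to 3 with the block, where each number holds every treatment, 1419209_at had -0.65 ± 0.18 (adjusted p = 0.7081). The Cxcl1 value of 0.02 thus depended on number 0, and that value does not show that the changes added up.

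Early values exist for number 0 alone, with 1 array per group and no replicate check. At 2 h Cxcl2 had a signal of 502.5 with TNF, 103.4 with anti-LTBR and 47.0 in the control. At 6 h it had 230.3, 96.1 and 36.7, and at 24 h 61.7, 49.8 and 53.3. Thus the TNF array of Cxcl2 was highest at 2 h and close to its control at 24 h. On the log2 scale TNF exceeded the control by 3.17 at 2 h and 2.36 at 6 h, and anti-LTBR by 0.99 and 1.18. Cxcl1 on 1419209_at had 4789.4 with TNF, 2162.1 with anti-LTBR and 1639.3 in the control at 2 h, then 4339.4, 2762.1 and 1791.6 at 6 h, and 2541.0, 2330.1 and 2177.9 at 24 h. The control level was higher at each later time while the TNF level was lower, so that the log2 difference of TNF from the control was 1.54, 1.27 and 0.22. Anti-LTBR differed from the control by 0.40 at 2 h and 0.62 at 6 h on that probe set. The probe set 1457644_s_at had 4340.8 with TNF, 1919.8 with anti-LTBR and 1344.2 in the control at 2 h, and 3415.6, 2237.4 and 1477.6 at 6 h. For 1441855_x_at these were 3550.7, 2139.2 and 1640.6 at 2 h, and 3085.3, 2625.2 and 1696.3 at 6 h. Cxcl5 had 138.4 with TNF, 107.1 with anti-LTBR and 78.5 in the control at 2 h, and 166.4, 96.5 and 117.8 at 6 h. Its TNF array differed from the control by 0.75 and 0.46 on the log2 scale, the smallest early TNF differences among the 5 probe sets.

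**Figure D3:**
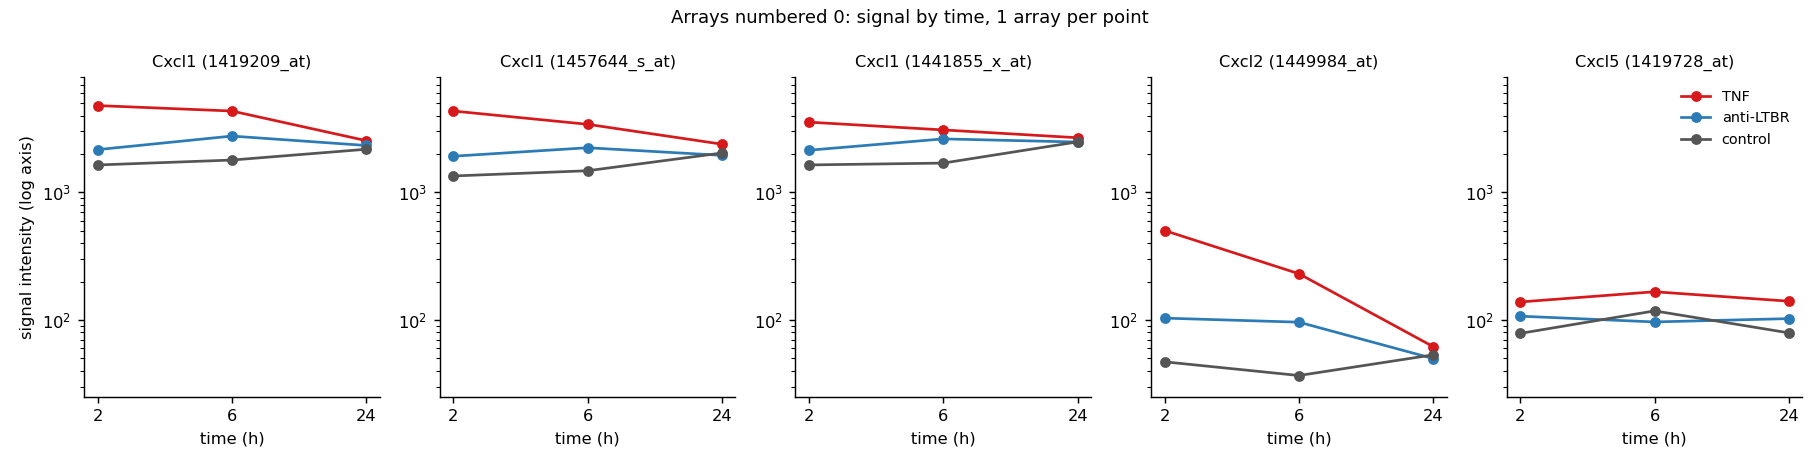
Signal intensity (log axis) of the 5 probe sets on the arrays numbered 0 at 2, 6 and 24 h, with 1 array per point, for TNF, anti-LTBR and the control. With TNF Cxcl2 is at 502.5 at 2 h, 230.3 at 6 h and 61.7 at 24 h, and the 3 lines of Cxcl1 come together by 24 h.

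Past 2-fold above the control, with the treated array above its own median, TNF had 4 of 5 member probe sets at 2 h (all but Cxcl5), against 0.795% of all probe sets. At 6 h it had 3 of 5, without 1441855_x_at and Cxcl5, against 1.08%. Anti-LTBR had 0 of 5 at 2 h, against 0.313%. At 6 h it also had 0 of 5, against 0.413%, since the Cxcl2 array was below its median. The arrays at 2 h and 6 h all belong to the set with high endothelial markers, and whether other numbers behave alike at those times was not measured.

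At 24 h the arrays of numbers 0 and 1 to 3 were set side by side over TNF, anti-LTBR and the control. Cxcl1 on 1419209_at had 2177.9 to 2541.0 with number 0 and 73.4 to 1363.7 with numbers 1 to 3, a 7.18-fold difference between the means of the log2 values. For 1457644_s_at these were 1950.6 to 2385.0 and 277.9 to 1089.3 (4.25-fold). Those 2 of 5 probe sets did not overlap and differed over 4-fold with every array numbered 0 above its median, as did 0.371% of all probe sets. The arrays did not overlap on the other Cxcl1 probe set either, but differed by 1.91-fold (2480.5 to 2679.8 and 889.0 to 1980.9). Cxcl5 differed by 2.90-fold and Cxcl2 by 1.21-fold, and both overlapped. Beside this stands the endothelial sum at 24 h of 21073.2 to 22380.4 for number 0. It was 4527 to 4868 for number 1, 2395.1 to 3186.3 for number 2 and 2426.2 to 2634.2 for number 3. The part of the endothelial markers in the level of Cxcl1 was not tested.

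**Figure D4:**
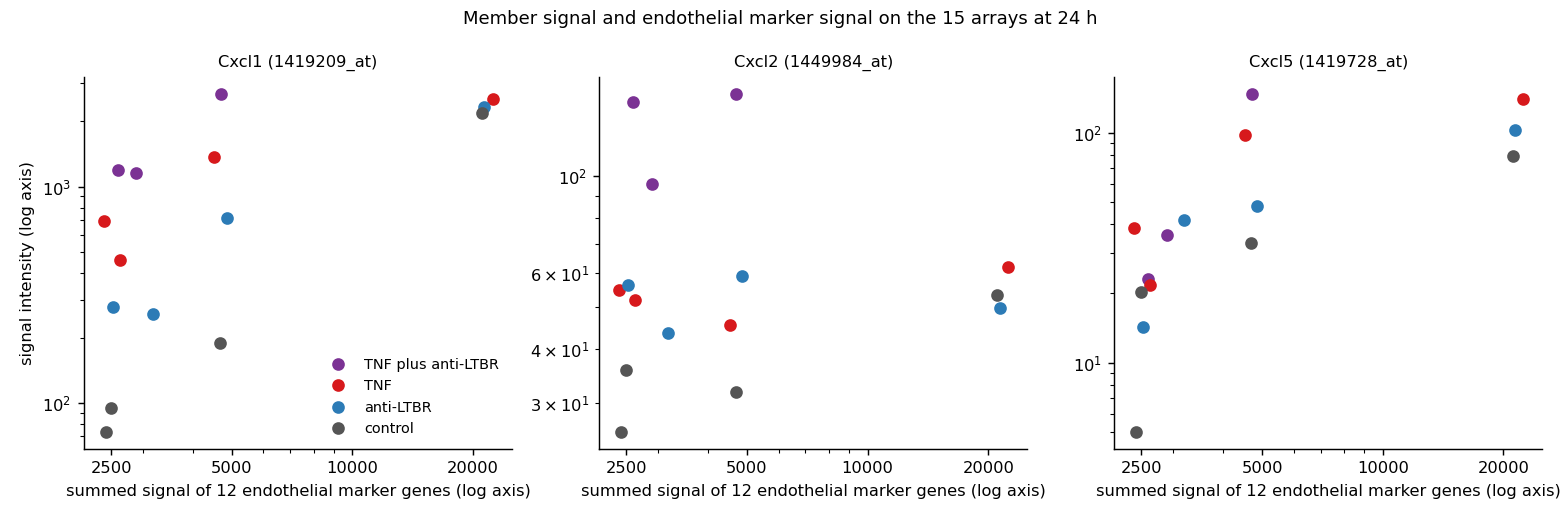
Signal of Cxcl1, Cxcl2 and Cxcl5 against the summed signal of 12 endothelial marker genes on the 15 arrays at 24 h, on log axes, coloured by treatment. The 3 arrays numbered 0 lie at the right, from 21073.2 to 22380.4 on the x axis, where Cxcl1 is at 2177.9 to 2541.0 whatever the treatment. Among the other 12 the control arrays of Cxcl1 lie at 73.4 to 189.3 and the combination arrays at 1155.7 to 2679.0, at like marker sums. On those 12 arrays the sum holds 1145.1 to 2124.8 from Eng, which overlapped with number 0, and 40.3 to 375.5 from Pecam1.

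The members were also compared with each other over arrays. Over all 21 arrays the log2 values of Cxcl1 (1419209_at) and Cxcl5 correlated at 0.89, Cxcl1 and Cxcl2 at 0.67, and Cxcl2 and Cxcl5 at 0.49 (Pearson). Over the 12 arrays at 24 h numbered 1 to 3, with each number's mean removed, these were 0.86, 0.88 and 0.74. The arrays share treatments and numbers, so the values are descriptions with no test. The genes closest to each member over the 21 arrays were sought among all tested genes. In this search Cxcl1 was read by 1441855_x_at, its probe set in the filtered fit, and not by 1419209_at. The closest genes were Apobec3, Marcksl1, Vcam1, Icam1 and Il13ra1 for Cxcl1 (r of 0.86 to 0.89). Vcam1 and Icam1 are the adhesion molecules to which leukocytes bind on activated vessels. For Cxcl2 they were Stx11, Hivep1, Rela, Bach1 and Nfkbie (0.84 to 0.91), of which Rela is the classical NF-kB subunit and Nfkbie an inhibitor of NF-kB. For Cxcl5 they were Sh3kbp1, Rspo2, Fscn1, Snn and Casp1 (0.91 to 0.94). At 24 h, over TNF, anti-LTBR and the control, all 15 of these genes had a higher mean signal with number 0 than with numbers 1 to 3. For Stx11 the means were 569.6 and 546.6. The genes were picked over arrays that include this difference, so it is no separate result. The share over all genes was not computed.

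Of the 6 other genes listed for the ELR chemokine system 5 were found by symbol, on 6 probe sets, and none of these was called against the control under any treatment in the fit of all probe sets, with or without the block. Cxcl3, another Cxcr2 ligand, had 4.7 to 32.1 over the 21 arrays, Ppbp, the platelet chemokine, 4.2 to 55.8, and Cxcr2 itself 9.2 to 50.9, with 0 of 21 arrays above the median for each. Ackr1, an atypical receptor that binds these chemokines without signalling, had 160.4 to 313.3, above the median on 21 of 21. Cxcl15, an ELR chemokine best known from lung epithelium, followed the numbers: 1421404_at had 1669.1 to 2403.1 on the 9 arrays numbered 0 and 82.6 to 447 on the other 12. With the block its change against the control was 0.19 ± 0.17 for the combination, 0.08 ± 0.15 for TNF and -0.30 ± 0.15 for anti-LTBR, and none was called. The filtered fit tested 2 of these genes and called 0, with or without the block.

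Genes of the wider pathway were counted in the filtered fit, where Cxcl1 itself was not called without the block. Of 12 tested cofactors of neutrophil recruitment and survival, 4 rose with the combination, 0 with TNF and 0 with anti-LTBR, and with the block 9, 6 and 4 did. Of all genes 1.82%, 0.337% and 0.129% were called higher, and with the block 9.1%, 3.05% and 2.56%, in the same order. Their median change was 0.65 with the combination, against 0.00 over all genes. Vcam1 rose by 2.03 ± 0.40 (adjusted p = 0.01295), Lcn2, an iron-binding protein of neutrophils and inflamed tissue, by 3.29 ± 0.67 (adjusted p = 0.0162), the cytokine Lif by 0.86 ± 0.18 (adjusted p = 0.01639) and the acute phase protein Saa3 by 3.16 ± 0.67 (adjusted p = 0.01996). Of 25 tested NF-kB and C/EBP inputs 13 rose with the combination, 7 with TNF and 6 with anti-LTBR, and with the block 18, 14 and 12 did, against the same shares of all genes. Among them were the subunits Nfkb2 (2.75 ± 0.26, adjusted p = 3.611e-05) and Relb (2.09 ± 0.20) of the alternative branch, the ubiquitin ligase Birc3 (2.43 ± 0.22) and the transcription factor Irf1 (1.11 ± 0.09). Of 11 regulators of mRNA decay, which bind or cut messages such as those of chemokines, 1 rose with the combination, with or without the block. Of all genes 9.1% and 1.82% were called higher, in that order. It was Zfp36l1, by 0.97 ± 0.13 (adjusted p = 0.0006895). Anti-LTBR alone also raised it, by 0.79 ± 0.12 (adjusted p = 0.01465), and TNF alone gave 0.13 ± 0.12 and no call. None of the 3 lists had a member called lower with the combination.

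Several chemokines of other classes rose by more than the members with the combination. Of 8 tested CC chemokines 4 rose without the block, where 1.82% of all genes were called higher, and 5 with it, where 9.1% were, among them the monocyte attractants Ccl2 (5.23 ± 0.59, adjusted p = 0.0002042) and Ccl7 (5.93 ± 0.54, adjusted p = 2.622e-05) and the T cell attractant Ccl5 (7.27 ± 0.50, adjusted p = 4.856e-06). Ccl9 rose by 2.05 ± 0.26 (adjusted p = 0.0005514). Of the CXCR3 ligands, which attract activated T cells, 1 was tested: Cxcl10 rose by 4.87 ± 0.46 (adjusted p = 3.523e-05). Of 6 other CXC and CX3C chemokines 2 rose, Cxcl16 by 2.40 ± 0.42 (adjusted p = 0.006285) and Cx3cl1 by 1.84 ± 0.33 (adjusted p = 0.006847), and 3 with the block. The largest blocked change among the members was 3.36 ± 0.35, for Cxcl1 on 1419209_at in the fit of all probe sets. The other chemokines are from the filtered fit, each read by its brightest probe set. With the block Ccl2 (5.45 ± 0.29), Ccl7 (5.93 ± 0.27), Ccl5 (7.25 ± 0.52) and Cxcl10 (4.85 ± 0.44) lay above 3.36. Cxcl16 (2.70 ± 0.19) lay below it. Read by its own brightest probe set, Cxcl1 changed by 1.12 ± 0.14 in the blocked filtered fit. That is below Cxcl16, Cx3cl1 (2.02 ± 0.14) and Ccl9 (1.91 ± 0.14), so the place of Cxcl1 depended on the probe set. The differences between genes were not tested.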

How the data were processed

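The authors deposited linear signal intensity values for 45101 probe sets on 21 arrays, made with GCOS 1.4 per the submitters' processing notes. How probes were summarized and background removed is not given in the sources used here, and no detection calls were used. Signals were used without further normalization as log2(signal + 10.1), 10.1 being the 10th percentile at 24 h. Control probe sets (64) were left out. Probe sets took symbols from the platform annotation, updated by gene ID: 34945 had 1 symbol, 932 several and 9160 none. Probe sets above the array median on 3 or more of 15 arrays passed (25110), and the 12446 genes they hold were fitted in R 4.3.3 with limma 3.58.1 (lmFit, eBayes with trend, 11 residual degrees of freedom). A call is a Benjamini-Hochberg adjusted p under 0.05 over all features tested. The script was tested on simulated data. The members and lists were chosen with earlier results of these data known.

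At 24 h the group-centred values of the 21 array pairs with 1 number correlated at 0.40 to 0.76, and of the 63 other pairs at -0.54 to 0.22. The numbers thus pair the arrays, and blocked values are given where they change a call. Named genes were all member probe sets, the other ELR genes, up to 4 called genes per list, ranked by adjusted p for the combination against the control, and the 5 genes nearest each member. Alternatives were the block, each array left out, numbers 1 to 3 only, other pseudocounts, scalings and filters, and no variance trend. The number of arrays limits the precision.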

Additional observations from a re-analysis of the deposited data

Results flagged for a closer look

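In the control group at 24 h the array numbered 0 stood far above the other 3 arrays for all 3 Cxcl1 probe sets. As a share of the group's whole range of linear signals, the gap to the nearest of them was 0.945 on 1419209_at, 0.976 on 1457644_s_at and 0.83 on 1441855_x_at. These shares are past Dixon's 95% critical value for 4 arrays. On the log2 scale of the tests each gap was a smaller share of its range. It was not past that value on 1419209_at (11.10 against 6.38 to 7.64) or 1441855_x_at (11.29 against 9.81 to 10.19), so the flag depends on the scale. The signals were 2177.9 against 73.4 to 189.3, 2035.1 against 277.9 to 320.1, and 2487.6 against 889.0 to 1160.0. Of 15 groups of 4 arrays examined these 3 were singled out, where chance gives about 1 in 20, and the 3 share the same arrays. The same array had an endothelial marker sum of 21073.2, against 2426.2 to 4685.3 on the other 3 control arrays; its part in the Cxcl1 level was not tested.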

How the results depend on the processing

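In the filtered fit 0 members were called in each of the 7 comparisons, and Cxcl1 was the 1 member tested. The count became 1 for the combination against the control with the replicate block, over numbers 1 to 3 with or without that block, and with no filter on low signals, where Cxcl2 was called. It was also 1 with the replicate block, over all arrays or numbers 1 to 3, for TNF against the control and for the combination against anti-LTBR. Leaving out each array gave counts of 0 to 1 for the combination against the control, the 1 being without the control array numbered 0. Other settings kept all 7 counts at 0. With all probe sets tested, the combination raised Cxcl2 in 15 of 15 fits that left out an array (adjusted p 0.002544 to 0.03248) and in every other setting tried.

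Directions turned only for values that were not called. For the Cxcl1 interaction (-0.02) the replicate block gave 0.21, numbers 1 to 3 with or without the block 0.035, and leaving out an array -0.34 to 0.21, alike in both fits since the probe set is the same. The interaction turned to 0.019 on 1419209_at and 0.30 on 1457644_s_at with the block, and 1457644_s_at gave -0.91 to 0.26 with an array left out. The combination against TNF for Cxcl5 (-0.18) was 0.20 with the block, 0.18 over numbers 1 to 3 with or without it, and -0.85 to 0.27 with an array left out. Leaving out an array gave -0.055 to 0.74 for 1457644_s_at against TNF and -0.45 to 0.67 for Cxcl5 against anti-LTBR. TNF against anti-LTBR for Cxcl2 (0.03) was -0.046 over numbers 1 to 3 with or without the block, -0.00020 with arrays scaled to equal medians, and -0.038 to 0.094 with an array left out. The cause was not tested. The early Cxcl2 differences shrank with larger pseudocounts: for TNF at 2 h 2.51 and 2.04 with 50 and 100, and at 6 h 1.69 and 1.27. Signals of Cxcl2 and Cxcl5 lay mostly below the array median, which limits what their small differences can show.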
